A study of Arabidopsis thaliana with 3 samples.

Results

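The enriched regions of the histone variants H2A.W.7 and H2A.W.6 on the centromeric part of Arabidopsis thaliana chromosome 5 are described here. They are all the regions on chromosome 5 in the centromeric list of each immunoprecipitation, 3504 for H2A.W.7 against 2783 for H2A.W.6, together 6287 of the 43500 regions in the series. They lie between 9.8 and 14.7 Mb of TAIR10, a span of 4.9 Mb whose borders are the multiples of 100 kb that part them from the arm regions. The material was leaves aged 2-3 weeks, with chromatin cut between nucleosomes by micrococcal nuclease. The groups were 1 H2A.W.7 immunoprecipitation, 1 H2A.W.6 immunoprecipitation and 1 control library, whose own data were not used here. The series asks how H2A variants divide the response to DNA damage between chromatin compartments, and its labels give no genotype, line or treatment.

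H2A.W is the plant class of H2A that marks heterochromatin, where it takes the place of other H2A types in the nucleosome and is known to help compact chromatin. H2A.W.7 is known to carry, in addition, a C-terminal motif that the kinase ATM phosphorylates after DNA damage, which H2A.W.6 lacks. In Arabidopsis the heterochromatin of a chromosome lies mainly around the centromere, where satellite repeats are flanked by transposons with scattered genes among them.

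The lists hold positions with no height, score or read count, so the depth is unknown. Each variant has 1 library, so differences between H2A.W.7 and H2A.W.6 are descriptions without replicates or p-values. Chromosomes, bins, genes and regions are not replicates, so the values of the other chromosomes are given for comparison with no test. The design names the control as the reference sample for both variants, and its part in the overlap was not tested. Intervals of shares are 95% Wilson intervals, which cover counting error only and treat neighbours as independent. No sequences are printed, since the lists and the gene table used here hold none.

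H2A.W.7 covered less of the chromosome 5 span than H2A.W.6, and most of what it covered was also covered by H2A.W.6. H2A.W.7 regions covered 2246 kb or 45.8% of the span, and H2A.W.6 regions covered 2898 kb or 59.1%, a ratio of 0.775 for H2A.W.7 over H2A.W.6. On the other 4 chromosomes this ratio was 0.751 to 0.820, so chromosome 5 lay inside their range. Both variants shared 1951 kb, or 39.8% of the span. H2A.W.7 alone held 295.1 kb (6.02%) and H2A.W.6 alone held 946.6 kb (19.3%), while 1707 kb (34.8%) lay in no region of either. Of the H2A.W.7 bases 86.9% were shared, and of the H2A.W.6 bases 67.3% were shared. Shared bases divided by all bases in regions of one variant or both, the Jaccard index, came to 0.611 on chromosome 5 and 0.593 to 0.638 on the others.

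**Figure D1:**
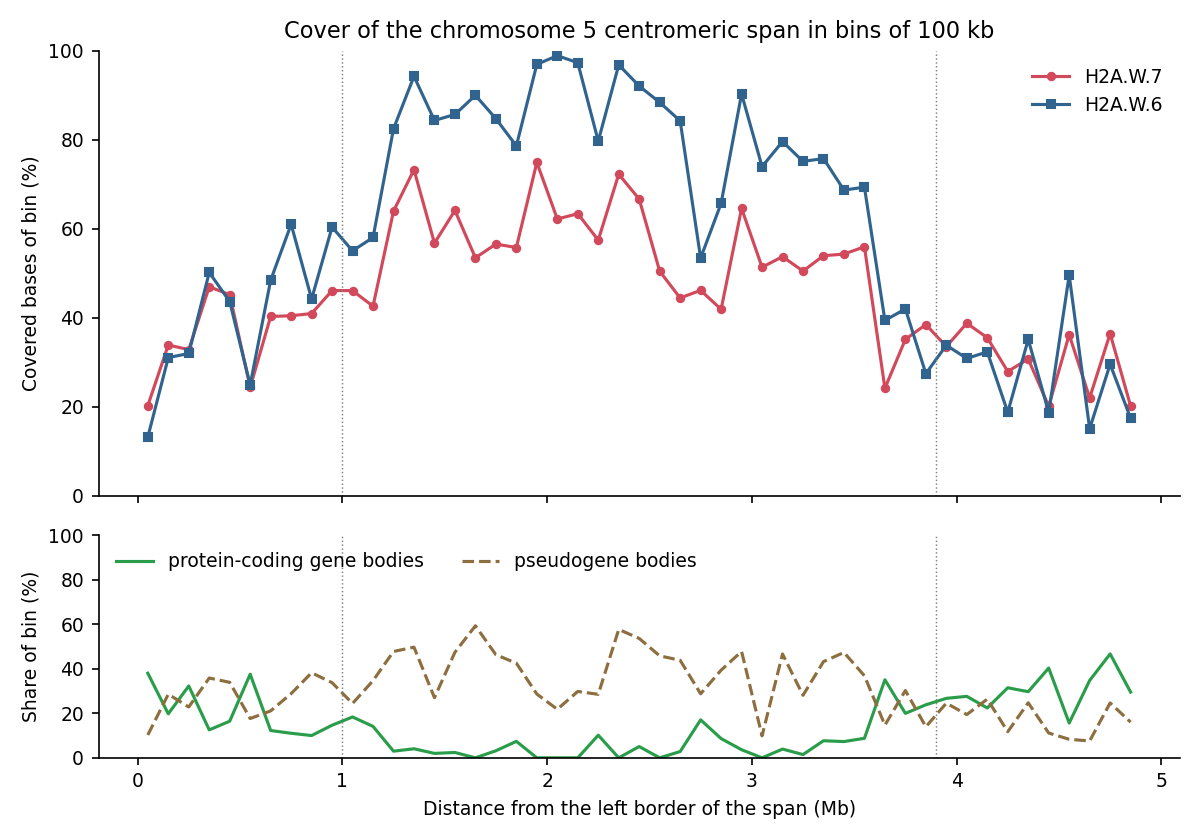
Upper panel, share of the bases of each 100 kb bin (%) in regions of H2A.W.7 (circles) and H2A.W.6 (squares) against the distance from the left border of the span (Mb), 1 library each. Lower panel, share of the same bins in bodies of protein-coding genes (solid) and pseudogenes (dashed). Dotted lines part the outer 1 Mb on each side from the inner 2.9 Mb, where H2A.W.7 covered at most 74.9% of a bin and H2A.W.6 up to 98.9%.

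The difference between the variants was large in the middle of the span and small in its outer parts, and in the right outer part its direction turned. In the inner 2.9 Mb H2A.W.7 covered 54.3% and H2A.W.6 covered 76.1%. In the outer 1 Mb on the left the shares were 37.1% for H2A.W.7 against 40.9% for H2A.W.6, and in the outer 1 Mb on the right they were 30.1% for H2A.W.7 against 28.1% for H2A.W.6. In the 500 kb of chromosome arm on either side of the span H2A.W.7 also covered more, with 15.6% for H2A.W.7 against 8.31% for H2A.W.6 on the left and 13.2% for H2A.W.7 against 7.30% for H2A.W.6 on the right. The ratio of covered bases, H2A.W.7 over H2A.W.6, thus ran along the chromosome through 1.88, 0.908, 0.713, 1.07 and 1.81.

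In bins of 100 kb, H2A.W.7 cover exceeded H2A.W.6 cover in 12 of 49, of which 4 lay among the 10 on the left, 1 among the 29 inner bins and 7 among the 10 on the right. That inner bin, from 13.6 Mb, is the last before the right outer part and had 38.5% for H2A.W.7 against 27.4% for H2A.W.6. H2A.W.7 covered 80% or more of 0 bins, and H2A.W.6 covered that much of 14. The 3 bins from 11.7 to 12.0 Mb, where no protein-coding gene is annotated, included the highest bin of each variant. They had 74.9%, 62.2% and 63.4% for H2A.W.7 against 96.9%, 98.9% and 97.3% for H2A.W.6. For H2A.W.7 other bins were higher than the second and the third of these, among them those from 11.1 Mb (73.3%) and 12.1 Mb (72.2%). Across the 49 bins the shares of both variants varied together, with a Pearson correlation of 0.929 and a Spearman correlation of 0.927, as a description of neighbouring bins of the same 2 libraries. Bins with more protein-coding sequence had less of either variant, with Pearson correlations of -0.859 with H2A.W.7 and -0.919 with H2A.W.6.

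**Figure D2:**
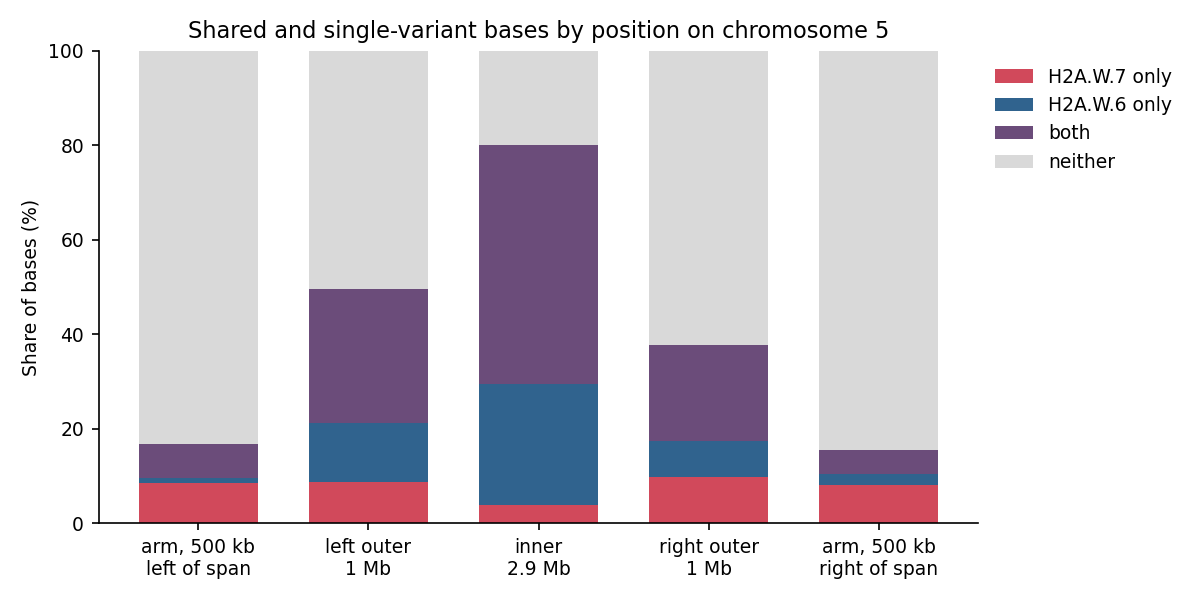
Share of bases (%) in regions of H2A.W.7 only, H2A.W.6 only, both or neither, in the 500 kb of arm on each side and in the 3 parts of the chromosome 5 span. Bases of H2A.W.7 only made up 8.71% on the left, 3.84% of the inner part and 9.67% on the right, while those of H2A.W.6 only made up 12.5%, 25.7% and 7.66% of the same parts.

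H2A.W.7 had more regions than H2A.W.6, and they were shorter. The median length was 430 bp for H2A.W.7 against 575 bp for H2A.W.6, and the longest regions measured 9675 bp for H2A.W.7 against 19795 bp for H2A.W.6. Regions of 1000 bp or more numbered 529 for H2A.W.7, with 42.0% of its bases, and 844 for H2A.W.6, with 68.7% of its bases. The medians differed most in the inner part, at 450 bp for H2A.W.7 against 685 bp for H2A.W.6, and least on the right, at 392.5 bp for H2A.W.7 against 400 bp for H2A.W.6. Breaks inside a list were often small, since 28.0% of the breaks between H2A.W.7 regions and 46.4% of those between H2A.W.6 regions measured 100 bp or less. When regions of a variant within 1000 bp of each other were joined, cover was 61.5% with H2A.W.7, against 67.7% with H2A.W.6, a ratio of 0.908.

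Where both variants were present, H2A.W.7 regions tended to sit inside longer H2A.W.6 regions. Of the 3504 H2A.W.7 regions, 3156 touched H2A.W.6 cover by at least 1 bp (90.1%, interval 89.0 to 91.0), against 75.2% of all H2A.W.7 regions of the series. In the other direction, 2204 of the 2783 H2A.W.6 regions touched H2A.W.7 cover (79.2%, 77.6 to 80.7), close to the 80.7% of all H2A.W.6 regions. Of the H2A.W.7 regions 1964 lay wholly inside H2A.W.6 cover, and of the H2A.W.6 regions 477 lay wholly inside H2A.W.7 cover. When 50% of both regions had to overlap, 995 regions of each list were left, which pair with each other. They make up 28.4% of the H2A.W.7 list and 35.8% of the H2A.W.6 list, shares that differ only because the lists differ in length.

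Bases of a single variant came mostly in short runs beside shared ones. Runs of H2A.W.7 alone numbered 1957 with a median of 85 bp, and runs of H2A.W.6 alone numbered 4139 with a median of 145 bp. Runs that stood between shared bases on both sides held 10.9% of the bases of H2A.W.7 alone and 29.4% of those of H2A.W.6 alone. Regions with no base of the other variant held 128.4 kb for H2A.W.7, in 348 regions, and 245.7 kb for H2A.W.6, in 579 regions. The longest of these measured 1800 bp for H2A.W.7 against 1775 bp for H2A.W.6. The H2A.W.7 one, chromosome 5, 13544986 to 13546785, met the pseudogene AT5G35337, and the H2A.W.6 one, 13038516 to 13040290, met no annotated gene. The next H2A.W.7 regions of this kind, 13608651 to 13610440 and 13632036 to 13633435, also met no annotated gene. The same held for the next H2A.W.6 ones, 10386691 to 10388265 and 13306706 to 13308210. The longest runs of H2A.W.6 alone stood beside shared bases, and the second of them, 12357676 to 12359555, met the pseudogenes AT5G32690 and AT5G32825.

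The longest regions of both variants lay in the inner part, apart from an H2A.W.7 region on the left, and most met pseudogenes. In this annotation most genes derived from transposons are listed as pseudogenes. The longest H2A.W.7 region, chromosome 5, 11700861 to 11710535, met the pseudogene AT5G31770 and was covered by H2A.W.6 throughout. The second, 12813936 to 12823180, met no annotated gene and had 84.7% of its bases in H2A.W.6 regions, which there numbered 12. The third, 10106661 to 10115820, met 5 pseudogenes from AT5G28100 to AT5G28140 and had 97.5% of its bases in H2A.W.6 regions. The longest H2A.W.6 region, 11828901 to 11848695, measured 19.8 kb and held 14 H2A.W.7 regions, which covered 76.0% of it. The second, 11933376 to 11952055, held 12 H2A.W.7 regions over 64.8% of its bases, and the third, 11681976 to 11695465, held 10 over 82.0%. Each of the 6 H2A.W.6 regions of 10 kb or more met between 4 and 14 H2A.W.7 regions.

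Each of these 3 H2A.W.6 regions contained MIR854 genes, which encode a microRNA known to derive from Athila retrotransposons. MIR854c and MIR854a lay in the longest, MIR854e in the second and MIR854d in the third. MIR854b lay in another H2A.W.6 region of 9000 bp, 11323096 to 11332095. All 5 MIR854 genes of the span and both MIR5643 genes had 100% of the body in regions of H2A.W.7 and 100% in regions of H2A.W.6. The H2A.W.7 regions over the MIR854 genes were shorter, from 1225 bp at MIR854a to 3310 bp at MIR854d. The copies of a family resemble each other, and reads of near-identical copies cannot be told apart in these lists, so the cover of a single copy is uncertain.

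The other 6 miRNA genes of the span were covered less fully, and 3 of them had no base of either variant. MIR5029 had 100% of its body in H2A.W.7 regions and 75.4% in H2A.W.6 regions, and MIR5638b had 57.6% with H2A.W.7 and 59.7% with H2A.W.6. MIR5027 had 26.1% with H2A.W.7 and 10.6% with H2A.W.6. MIR164c, whose microRNA represses NAC transcription factors, had 0% of either, and so had MIR396b, whose microRNA represses growth-regulating factors, and MIR2937. From MIR164c the nearest H2A.W.7 region lay 1505 bp away and the nearest H2A.W.6 region 3173 bp away, and from MIR396b they lay 1357 bp (H2A.W.7) and 3967 bp (H2A.W.6) away. Genes with at least 50% of the body in regions of a variant are called covered. By that limit 9 of the 13 miRNA genes had H2A.W.7 cover, against 18.4% of all miRNA genes of the series, and the same 9 had H2A.W.6 cover, against 9.82% of all. Over small RNA genes of other kinds, the tRNA gene AT5G32017 and the snoRNA gene AT5G04945, both in the inner part, had 100% of either variant. The tRNA genes AT5G27715 and AT5G35605, the snoRNA genes AT5G04425 and AT5G04545, and the spliceosomal RNA genes U1.8 and U4.7 had 0%.

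Of the 1159 annotated genes that lay wholly in the span, H2A.W.7 covered 615 and H2A.W.6 covered 767, with 567 in common. Among all genes of the series the shares were 11.3% for H2A.W.7 against 12.9% for H2A.W.6. The difference lay mostly in pseudogenes, of which H2A.W.7 covered 443 of 643 (68.9%, 65.2 to 72.4) and H2A.W.6 covered 592 (92.1%, 89.7 to 93.9). Among all pseudogenes of the series the H2A.W.7 share was 64.4% and the H2A.W.6 share 86%, so both counts lay near the background. H2A.W.7 alone covered 19 pseudogenes and H2A.W.6 alone covered 168, of which 136 lay in the inner part. The inner part held 472 of the 643 pseudogenes. In the centromeric spans of chromosomes 1 to 4, H2A.W.7 alone covered 15 of 490, 12 of 724, 7 of 685 and 8 of 612 pseudogenes. H2A.W.6 alone covered 133, 217, 221 and 179 of them. With any base counted, 606 pseudogenes of the chromosome 5 span met H2A.W.7 and 615 met H2A.W.6. When 90% had to be covered, 187 met the limit with H2A.W.7 and 457 with H2A.W.6.

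How much of a pseudogene was covered depended on its place for H2A.W.6 and little for H2A.W.7. The mean share of the body in H2A.W.7 regions was 61.8% on the left, 64.6% in the inner part and 66.4% on the right. For H2A.W.6 it was 77.3% on the left, 92.0% in the inner part and 70.9% on the right. Among the genes of 1 kb or more, the 5 that differed most towards H2A.W.6 were the pseudogenes AT5G32136, AT5G32112, AT5G31778, AT5G32595 and AT5G31919, all in the inner part. Their bodies had between 0% (AT5G32136 and AT5G32112) and 9.43% (AT5G32595) in H2A.W.7 regions, against 98.1% (AT5G32112) to 100% (AT5G32595) in H2A.W.6 regions. H2A.W.7 regions were nonetheless close, at 504 bp from AT5G32136 and 654 bp from AT5G32112.

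Among genes of 1 kb or more, the 5 largest differences towards H2A.W.7 were smaller, and 4 of them lay in the outer parts of the span. The misc_RNA gene AT5G05345 had 100% of its body in H2A.W.7 regions and 21.2% in H2A.W.6 regions. The pseudogene AT5G28627 had 100% with H2A.W.7 and 39.6% with H2A.W.6, and the protein-coding gene AT5G35640 had 98.0% with H2A.W.7 and 43.5% with H2A.W.6. AT5G00490, a misc_RNA gene, had 76.1% with H2A.W.7 and 22.2% with H2A.W.6. In the inner part, the pseudogene AT5G33285 had 51.7% with H2A.W.7 and 0% with H2A.W.6, whose nearest region lay 8274 bp away.

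Protein-coding genes were less often covered, and nearly as often by either variant. H2A.W.7 covered 94 of 354 (26.6%, 22.2 to 31.4) and H2A.W.6 covered 106 (29.9%, 25.4 to 34.9), with 85 in common. Among all protein-coding genes of the series the share was 3.54% with H2A.W.7 and 3.24% with H2A.W.6, which is lower. Both chromosome 5 shares lay inside those of the other centromeric spans, which were 15.2% to 36.7% for H2A.W.7 against 17.9% to 43.4% for H2A.W.6. In the inner part H2A.W.7 covered 34 of 105 and H2A.W.6 covered 46. On the left each variant covered 18 of 98, with 16 in common, and on the right each covered 42 of 151, with 37 in common. The order of the whole-span counts turned with any base counted, 146 for H2A.W.7 against 128 for H2A.W.6, and with regions of the median length or longer, 59 for H2A.W.7 against 55 for H2A.W.6.

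Covered protein-coding genes were short and seldom had a name. Of the 58 genes under 500 bp H2A.W.7 covered 44 and H2A.W.6 covered 45. These include most of the 23 protein-coding genes of the tandem array described below, whose single-copy values are uncertain. From 500 to below 1000 bp H2A.W.7 covered 18 and H2A.W.6 covered 22 of 59 genes. From 1000 to below 2000 bp H2A.W.7 covered 25 and H2A.W.6 covered 28 of 87. Of the 150 genes of 2 kb or more H2A.W.7 covered 7 and H2A.W.6 covered 11. A background by gene length or by symbol over the whole series was not computed. Among the 76 protein-coding genes with a symbol in the annotation, each variant covered 3, or 3.95%. Among all protein-coding genes of the series the shares were near this, at 3.54% with H2A.W.7 and 3.24% with H2A.W.6. Both covered AGL90, a MADS-box gene, with 100% in H2A.W.7 regions and 92.5% in H2A.W.6 regions, and CYP79A4P, of the cytochrome P450 class, with 100% in H2A.W.7 regions and 98.1% in H2A.W.6 regions. H2A.W.7 also covered MRU1, at 51.8% against 41.5% with H2A.W.6. H2A.W.6 also covered SRS8, of the SHI-related sequence family, which had 29.4% with H2A.W.7 and 70.7% with H2A.W.6. Among the 278 known only by a locus tag, H2A.W.7 covered 91 and H2A.W.6 covered 103. These 278 include the tandem array and were shorter, with a median of 1335.5 bp against 2619 bp for genes with a symbol. Having a name was thus not separated from length. The longest protein-coding genes covered by both were AT5G28190, at 2847 bp (68.9% with H2A.W.7 and 99.6% with H2A.W.6), and AT5G32590, at 2734 bp (99.5% with H2A.W.7 and 98.9% with H2A.W.6). Of those covered by H2A.W.6 alone the longest was AT5G28810, at 3291 bp (44.5% with H2A.W.7 and 95.3% with H2A.W.6). AT5G35375 lay wholly inside an H2A.W.7 region, 13592106 to 13593150, while the nearest H2A.W.6 region was 10111 bp away.

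More long non-coding RNA genes were covered by H2A.W.7 than by H2A.W.6 over the whole span, which rested on its left part. H2A.W.7 covered 20 of the 54 lncRNA genes of the span (37.0%, 25.4 to 50.4) and H2A.W.6 covered 14 (25.9%, 16.1 to 38.9), with 11 in common, while among all lncRNA genes of the series H2A.W.7 covered 8.45% and H2A.W.6 covered 5.4%. The intervals overlap widely, but they ignore that both shares come from the same 54 genes. H2A.W.7 alone covered 9 of these genes and H2A.W.6 alone covered 3. On the left of the span H2A.W.7 covered 13 of 27 and H2A.W.6 covered 7, all 7 of them also covered by H2A.W.7. In the inner part H2A.W.7 covered 6 of 20 and H2A.W.6 covered 7, and on the right H2A.W.7 covered 1 of 7 and H2A.W.6 covered 0. AT5G04585, an lncRNA gene of 298 bp, lay wholly in H2A.W.7 regions with H2A.W.6 at 11 bp, and AT5G04845 lay wholly in H2A.W.7 regions with H2A.W.6 at 664 bp. AT5G05215 had the reverse, with 0% for H2A.W.7 against 100% for H2A.W.6.

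Many of the covered protein-coding genes on the right belonged to a tandem array of short genes, found after the values had been seen. From AT5G36310 to AT5G36550, 25 genes followed each other over 53.0 kb with a median distance of 2195 bp between starts, and 19 of them had the same length of 357 bp. H2A.W.7 covered 19 of the 25 genes and H2A.W.6 covered 24. H2A.W.7 regions took 66.2% of the gene bodies and 28.1% of the sequence between them, while H2A.W.6 regions took 84.6% of the bodies and 48.3% between them. Cover was broken in each repeat, with 52 H2A.W.7 regions and 70 H2A.W.6 regions in the array. Averaged over the genes, both variants had a stretch of high cover over the body and another about 1 kb to the right. At 825 bp to the left of the gene centre the mean cover was 0% for both. AT5G36390 alone had no base of either variant, and AT5G36380 and AT5G36550 were among the 5 genes with none of H2A.W.7. Copies of a tandem repeat can take each other's reads, so the values of single copies are uncertain. Without the array H2A.W.7 covered 76 and H2A.W.6 covered 84 protein-coding genes of the span.

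**Figure D3:**
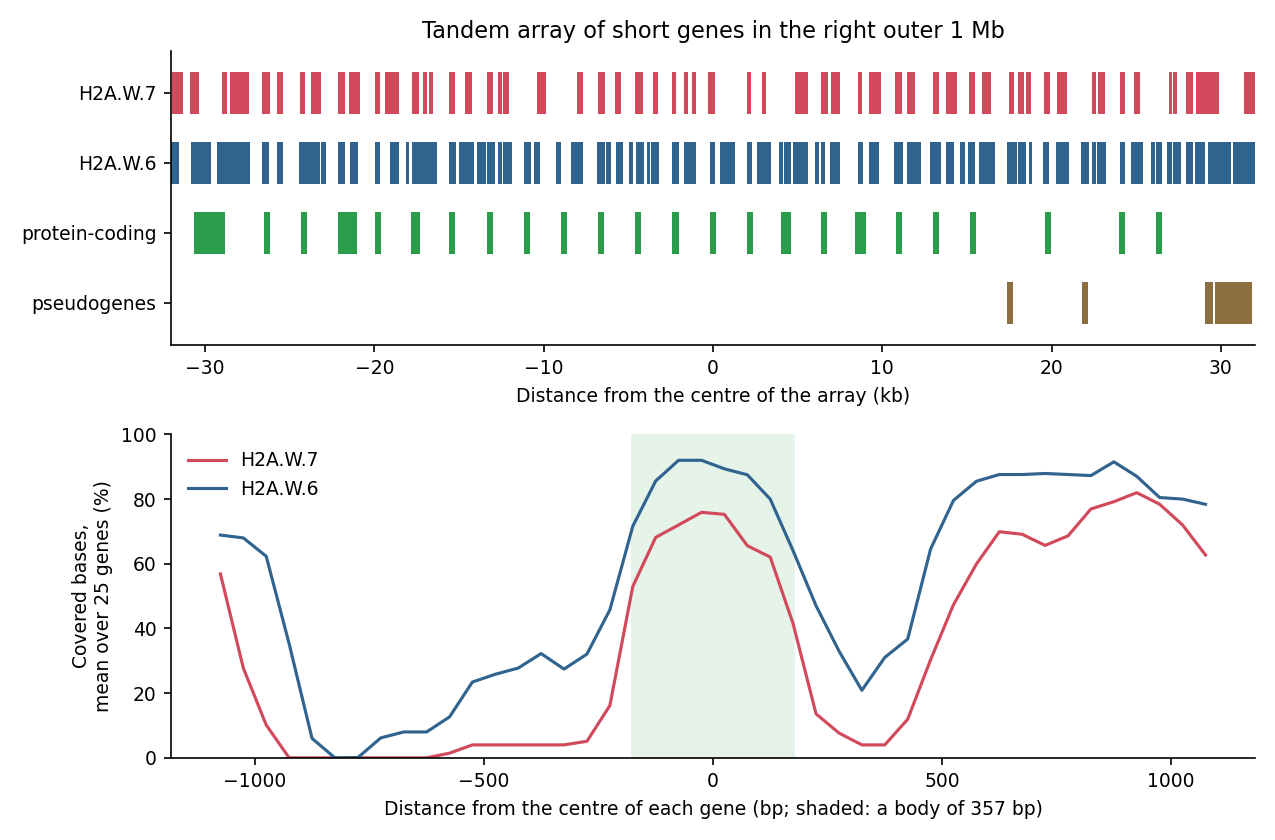
Upper panel, regions of H2A.W.7 and H2A.W.6 and gene bodies by distance from the centre of the tandem array (kb), with transcribed pseudogenes among the pseudogenes. Lower panel, mean cover (%) over the 25 genes of the array in steps of 50 bp against the distance from the centre of each gene (bp), where both variants are high over the body and again to its right, with the highest H2A.W.7 value, 82.0%, at 925 bp to the right.

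Protein-coding genes made up most of the longest stretches without either variant. In all, 2527 gaps with a median of 135 bp lay in no region of either variant. The 86 gaps of 5 kb or more held 737.9 kb, or 43.2% of the uncovered bases, and protein-coding bodies took 59.7% of their sequence, against 14.7% of the span. Pseudogene bodies took 3.88% of these gaps and 31.1% of the span. Of the 86 gaps 79 met a protein-coding gene, and 141 of the 354 protein-coding genes lay wholly in such a gap. The share in such gaps over the series was not computed, but 91.7% of all its protein-coding genes had no base of either variant. Of the 86 gaps 25 lay on the left, 23 in the inner part and 38 on the right. The other 4 chromosome spans had 49 to 120 gaps of 5 kb or more. Their longest gaps measured 18.5 to 54.2 kb, against 21.8 kb here.

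The longest gap, chromosome 5, 14524886 to 14546645, met 3 genes, ACS, which encodes acetyl-CoA synthetase, the beta-glucosidase gene BGLU42 and the callose synthase gene GSL09, and held 2 of them whole. The second, 14628691 to 14646660, held 6 protein-coding genes, among them ARF8, an auxin response factor, SEF, a subunit of the SWR1 complex that exchanges H2A for H2A.Z, and CHX24, a cation/H+ exchanger gene. In the 20 kb to the left of this gap H2A.W.7 covered 34.1% and H2A.W.6 covered 21.8%. In the 20 kb to the right H2A.W.7 covered 25.15% and H2A.W.6 covered 20.7%. The third, 10291136 to 10308505, held AT5G28300, AT5G28310 and AT5G28320. Gaps also occurred deep in the inner part. The gap 11610791 to 11621805 held AT5G30490, the galactinol synthase gene GolS10 and RPS1, which encodes a plastid ribosomal protein. In the 20 kb to its left H2A.W.7 covered 58.9% and H2A.W.6 covered 89.9%, and in the 20 kb to its right H2A.W.7 covered 47.6% and H2A.W.6 covered 66.7%. The gap 12584561 to 12598040 held CUE1, the phosphoenolpyruvate transporter of the plastid envelope, and CDR1, an aspartic protease gene of disease resistance. Here the 20 kb to the left had 74.7% for H2A.W.7 against 71.4% for H2A.W.6. The 20 kb to the right had 51.85% for H2A.W.7 against 50.15% for H2A.W.6. In the inner part, too, the gap 12076896 to 12089405 met 4 protein-coding genes from AT5G32440 to AT5G32470.

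**Figure D4:**
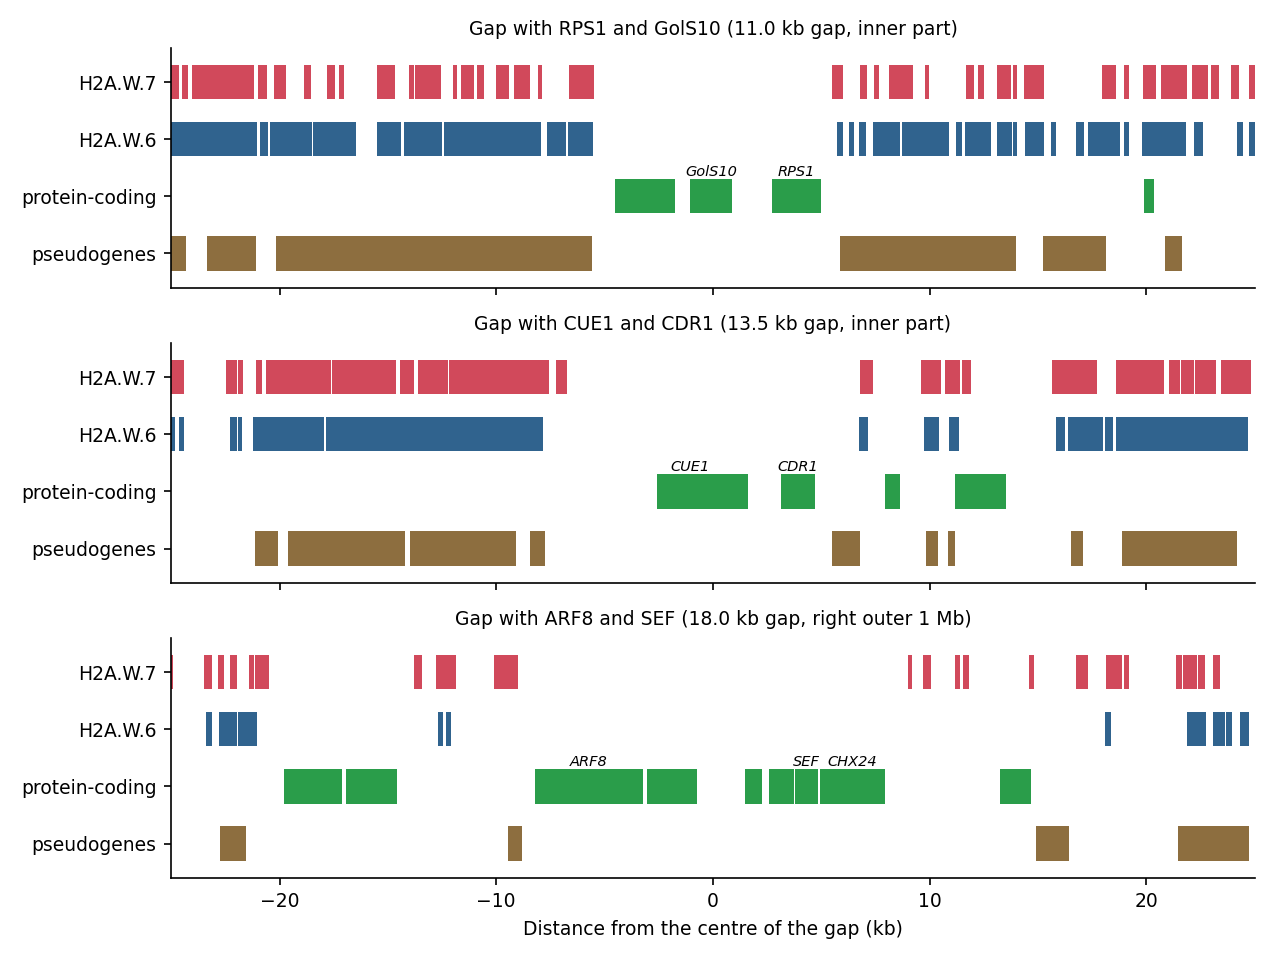
Regions of H2A.W.7 and H2A.W.6 and gene bodies within 25 kb of the centre of 3 gaps, drawn to scale, with transcribed pseudogenes among the pseudogenes. The gaps of 11.0, 13.5 and 18.0 kb enclose protein-coding genes, some of which are named, and regions of both variants stand on either side. They are sparser around the gap of 18.0 kb, to the right of which the first H2A.W.6 region starts 18105 bp from the centre.

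The ends of large gaps were mostly H2A.W.7 bases. Of the 171 ends of these gaps inside the span, 156 (91.2%) had a base of H2A.W.7 alone as their first covered base, 13 a base of H2A.W.6 alone and 2 bases shared by both. On the other chromosomes 83.7% to 89.2% of such ends were of H2A.W.7 alone. Over gaps of any length the order was the opposite, with 1700 of 5052 ends of H2A.W.7 alone and 3161 of H2A.W.6 alone. Among the gaps of 10 kb or more, 81.8% of the ends were of H2A.W.7 alone. The gap ends and the measures beside genes below were chosen after their values had been seen.

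Uncovered protein-coding genes lay nearer to H2A.W.7, which is not independent of the gap ends. Such genes lie in gaps, so their nearest regions are gap ends, and 141 of them lay wholly in gaps of 5 kb or more. Of the 354 protein-coding genes 198 (55.9%) had no base of either variant, against 91.7% of all protein-coding genes of the series. For 174 of these 198 genes the nearest region was one of H2A.W.7, for 23 it was one of H2A.W.6, and for 1 the distances were equal. The median distance was 700 bp to H2A.W.7 and 2017.5 bp to H2A.W.6, and 127 genes had H2A.W.7 within 1000 bp while 60 had H2A.W.6 that near. In the inner part, where H2A.W.6 covered more bases, H2A.W.7 was still the nearer for 38 of 47 genes. The other chromosomes had 82.7% to 91.2% of such genes nearer to H2A.W.7.

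Around genes of 2 kb or more, cover by H2A.W.7 was higher than cover by H2A.W.6 just outside protein-coding genes and close to it inside them. Inside the last 250 bp of the 150 protein-coding genes, H2A.W.7 covered 8.18% and H2A.W.6 covered 8.40%. Between 250 and 500 bp outside, counting bases outside annotated genes, H2A.W.7 covered 24.2% and H2A.W.6 covered 10.2%. Between 1000 and 1250 bp the shares were 36.6% for H2A.W.7 against 15.9% for H2A.W.6, and between 2750 and 3000 bp they were 28.9% for H2A.W.7 against 22.7% for H2A.W.6. On the other chromosomes the shares between 1000 and 1250 bp were 30.3% to 46.4% for H2A.W.7 against 15.9% to 34.3% for H2A.W.6. At the 304 pseudogenes of this length H2A.W.7 cover was lower than H2A.W.6 cover on both sides of the edge, so outside the edge the order was the opposite of that at protein-coding genes. Inside the last 250 bp H2A.W.7 covered 68.9% and H2A.W.6 covered 88.9%, and between 1000 and 1250 bp outside H2A.W.7 covered 52.4% and H2A.W.6 covered 64.5%. Between 750 and 1000 bp inside the pseudogene edge H2A.W.7 covered 57.7% and H2A.W.6 covered 89.6%.

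**Figure D5:**
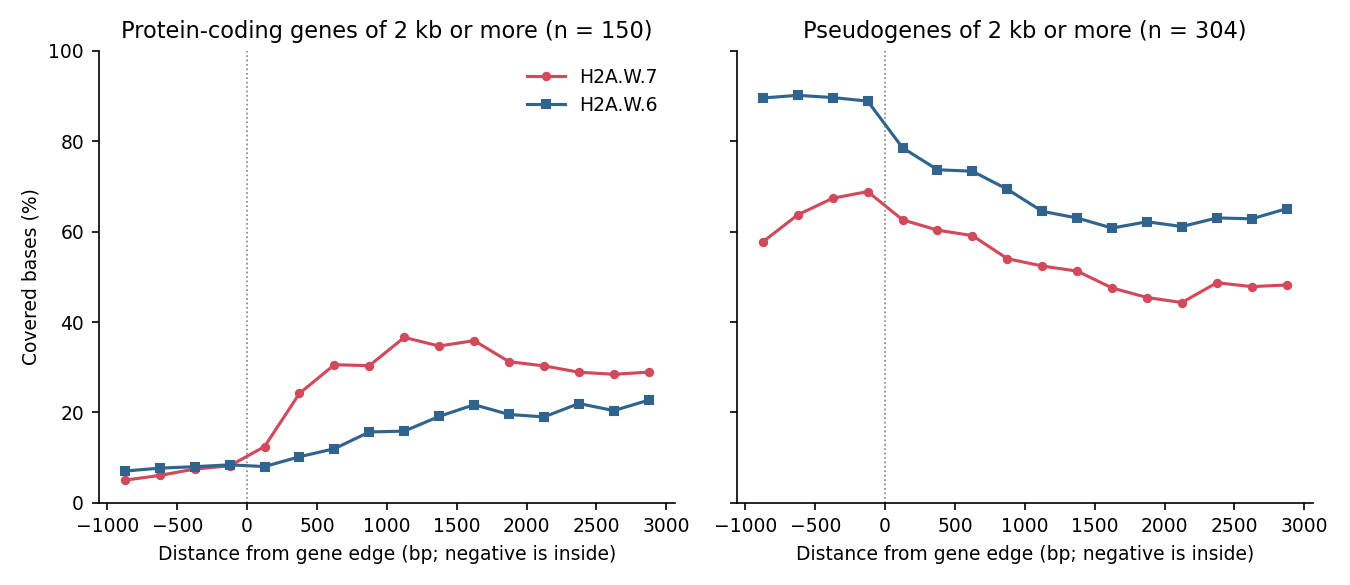
Share of bases (%) in regions of H2A.W.7 (circles) and H2A.W.6 (squares) by distance from the gene edge in steps of 250 bp, both edges together, with bases in annotated genes left out on the outside. Just over 1 kb outside 150 protein-coding genes H2A.W.7 stood at 36.6% and H2A.W.6 at 15.9%, while in the last 250 bp of 304 pseudogene bodies H2A.W.7 stood at 68.9% and H2A.W.6 at 88.9%.

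Named genes of leaf metabolism, signalling and housekeeping on the span had little or no H2A.W.7 and no H2A.W.6. Of the 29 genes in these 3 lists, 0 had any H2A.W.6 base and 3 had some H2A.W.7, which covered 10.6% of DES1, a cysteine desulfhydrase gene, 10.6% of ANX2, a receptor kinase gene of pollen tubes, and 6.85% of PGLP1, the phosphoglycolate phosphatase of photorespiration. The other 26 had no base of either variant and lay in gaps of 1.995 to 21.8 kb. Such a count lies near the background, since 91.7% of all protein-coding genes of the series and 64 of the 76 with a symbol on the span had no base of either variant. H2A.W.7 was the nearer variant for 28 of the 29, with median distances of 544 bp to H2A.W.7 and 1317 bp to H2A.W.6. The exception, WNK9, lay 699 bp from H2A.W.7 and 649 bp from H2A.W.6. Of the 198 uncovered protein-coding genes of the span, 174 were nearer to H2A.W.7, with medians of 700 bp to H2A.W.7 and 2017.5 bp to H2A.W.6. Being nearer to H2A.W.7 was thus not particular to the lists.

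Among the 12 genes of leaf metabolism and the chloroplast, the median distance was 435 bp to H2A.W.7 and 3741 bp to H2A.W.6. GS2, the plastid glutamine synthetase, lay 1018 bp from H2A.W.7 and 1058 bp from H2A.W.6. HCF109, a plastid release factor, had H2A.W.7 at 278 bp and H2A.W.6 at 5679 bp, and CAC2, a subunit of plastid acetyl-CoA carboxylase, had H2A.W.7 at 188 bp and H2A.W.6 at 2018 bp. The gap around GME, which makes a precursor of ascorbate, measured 6.44 kb. AT5G36790, listed as a second copy of PGLP1, had no base of either variant, and reads of such copies cannot be assigned to one of them in these lists.

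The list of 11 genes of signalling and development had a median distance of 486 bp to H2A.W.7 and 815 bp to H2A.W.6. SOS2, a kinase of salt tolerance, lay 175 bp from H2A.W.7 and 805 bp from H2A.W.6. PHYC, a phytochrome, had H2A.W.7 at 331 bp and H2A.W.6 at 1112 bp. AN3, a partner of growth-regulating factors in leaf growth, had H2A.W.7 at 486 bp and H2A.W.6 at 956 bp, and the cytokinin receptor gene HK2 had H2A.W.7 at 600 bp and H2A.W.6 at 815 bp. TT2, a MYB gene of seed coat pigment, stood in the narrowest gap of the lists, 1.995 kb wide.

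The 6 genes of cell and chromatin housekeeping had medians of 843.5 bp to H2A.W.7 and 1250 bp to H2A.W.6. MIS12, a kinetochore protein gene, lay in a gap of 10.1 kb with H2A.W.7 at 2659 bp and H2A.W.6 at 2779 bp. PAP26, an acid phosphatase gene, had H2A.W.7 at 139 bp and H2A.W.6 at 259 bp. BIP1, an endoplasmic reticulum chaperone gene, had H2A.W.7 at 197 bp and H2A.W.6 at 1317 bp.

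Bases of H2A.W.7 alone lay mostly outside annotated genes. Of the bases of H2A.W.7 alone 13.0% lay in pseudogenes, transcribed ones included, and 78.7% outside annotated genes. Of those of H2A.W.6 alone 46.9% lay in pseudogenes and 50.2% outside genes, and of the shared bases 49.9% lay in pseudogenes and 46.0% outside genes. Protein-coding bodies took 6.28% of the bases of H2A.W.7 alone, 2.61% of those of H2A.W.6 alone and 35.6% of those in neither. Of all bases of the span 33.1% lay in pseudogenes, 14.7% in protein-coding bodies and 51.3% outside genes. The share outside genes was thus near that of the span for H2A.W.6 alone and above it for H2A.W.7 alone. The annotation used lists no transposons as such, so transposons that are not listed as genes count as outside genes.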

How the data were processed

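The authors deposited 4 lists of enriched regions, 2 per variant for arms and for centromeric parts, which hold positions and no other values. In the centromeric lists starts and ends lie on a grid of 5 bp. Per the submitters' processing notes the build was TAIR10 and bedtools was used. Aligner, caller, threshold and use of the control: not given in the sources used here. Sequencing depth and threshold can both change how much is listed, and their part in the difference between variants was not tested. Genes came from a RefSeq table of TAIR10.1 with 37899 nuclear genes, without strand, exons or transposons. Moved by up to 10000 bp either way, it gave the highest pseudogene cover of both variants with no shift. No gene coordinates or sequences are printed. Cover, runs, overlaps and distances were computed in Python 3.11.15 with numpy 2.4.6, tested on simulated intervals, and overlap counts equalled those of bedtools 2.31.1. The members and lists were chosen with earlier results of these data known. Named were members of the lists, the genes of largest difference, covered genes with a symbol or of greatest length, and genes at the longest regions, runs and gaps. Small RNA genes, the tandem array and some other single genes were chosen after their values were seen. Alternatives were other limits, stricter or merged lists, other bins and part of the span.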

Additional observations from a re-analysis of the deposited data

How the results depend on the processing

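The 18 results were recomputed to 62 alternative values. Of these 17 moved by more than counting error or 1.5 times and 45 did not. A crossing of 1 was checked only for the ratio of covered bases and the ratio of cover beside genes, with 0 found. The inner part was the only part of the span among these settings. In the right outer 1 Mb, which was not among them, the ratio of covered bases was 1.07. The order of the variants in the counts of covered protein-coding genes did turn in some settings, given below. After merging regions within 1000 bp, H2A.W.6 alone held 11.9% of the span, and in the inner part H2A.W.7 alone held 3.84%. Requiring 50% of both regions left 995 paired regions in each list, 28.4% of the H2A.W.7 list and 35.8% of the H2A.W.6 list, which differ by list length alone. For meeting by 1 bp, regions of the median length or longer gave 82.8% for H2A.W.7 against 73.9% for H2A.W.6. There were 22 gaps of 10 kb or more, with 81.8% of their ends of H2A.W.7 alone. Protein-coding genes covered with any base numbered 146 for H2A.W.7 against 128 for H2A.W.6, the reverse of the main order. At 90% of the body they were 52 for H2A.W.7 against 63 for H2A.W.6. With regions of the median length or longer they were 59 for H2A.W.7 against 55 for H2A.W.6, and among genes of 500 bp or more 50 for H2A.W.7 against 61 for H2A.W.6. At 90% of the body H2A.W.7 covered 187 pseudogenes. In the inner part 80.9% of uncovered protein-coding genes were nearer to H2A.W.7. Higher limits and fewer regions lower such counts by construction, and the cause of the other moves was not tested. The alternatives on gap ends, on distances, on cover beside genes, on genes of 500 bp or more and on the tandem array were chosen after seeing the data. No paired analysis was possible because each variant has 1 library. The depth of the libraries is unknown.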

Other observations

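Of the 643 pseudogenes of the span 14 had no base of either variant. In the centromeric spans of chromosomes 1 to 4 such pseudogenes numbered 20 of 490, 25 of 724, 18 of 685 and 5 of 612. The share over all pseudogenes of the series was not computed. Among the 14 were MUG8, at 3413 bp, whose MUSTANG family is known for transposase genes taken into plant use, and SADHU4-1, of the Sadhu retroelement family. MUG8 lay 2037 bp from H2A.W.7 and 4825 bp from H2A.W.6, in the same 10.2 kb gap as PAP26. SADHU4-1 lay 600 bp from H2A.W.7 and 3530 bp from H2A.W.6. The longest of the 14 was AT5G28635, at 5361 bp.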
